A study of Mus musculus with 2 samples.

Results

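The genes described here are 33 red cell genes other than globins: regulators of red cell development, proteins of the red cell membrane and its skeleton, surface proteins, red cell enzymes and further genes of the lineage. They were taken by symbol, and all 33 were found among the 43346 Ensembl genes of the count tables. They were measured in total RNA from the heart of B6NCrl mouse embryos at embryonic day 13.5, in 2 libraries of 1 group. The embryos were healthy, of both sexes and pooled, with no mutant or treated group, so the comparison is between replicates 1 and 2. The labels call these biological replicates and place both under a single donor entry, so how far the pools were independent is not known. The libraries held 36733400 and 36060765 estimated reads. All 10 listed cardiomyocyte genes were above 1 TPM in both, with summed levels of 31300 and 37400 TPM, so the tissue carried the markers of its label.

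Red cells form when erythropoietin receptor signalling and a set of transcription factors act on progenitors. Gata1, Tal1, Lmo2 and Ldb1 join in a complex that binds GATA-type DNA sites, and Klf1 binds CACCC-type sites, together switching on globin and membrane genes. The mature cell holds its shape through a spectrin and actin mesh that is tied to the bilayer by ankyrin and protein 4.2 at the anion exchanger band 3, and by protein 4.1 at glycophorin C. At embryonic day 13.5 the blood of the mouse holds primitive red cells from the yolk sac, while the fetal liver releases growing numbers of definitive ones. A heart taken with blood in its chambers can hold red cell RNA beside that of muscle, endothelium and other cells. In such a bulk sample, fewer red cells and less RNA per red cell cannot be told apart.

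The promoters of the 8 members that differed between the libraries by at least 1.5-fold, and of Tmcc2, whose transcript starting inside the gene led, are shown first, with any match to the DNA motifs of the factors just named in capitals. For Tal1 only the promoter of its longest transcript is shown. They are from RefSeq on GRCm38.p6, read 5′ to 3′ on the gene's strand. Each covers the 250 bases before the start site, without bases that another annotation, GENCODE M21, places in an exon. The GATA motifs searched were AGATAA or AGATAG, together with the forms TGATAA or TGATAG that open with T, and the CACCC-type motif was written CCNCNCCC, each on both strands, so that their reverse complements also count, and overlapping matches merge.
Klf1 (chr8:84901732-84901927, + strand, GATA match 80 bases before the start site): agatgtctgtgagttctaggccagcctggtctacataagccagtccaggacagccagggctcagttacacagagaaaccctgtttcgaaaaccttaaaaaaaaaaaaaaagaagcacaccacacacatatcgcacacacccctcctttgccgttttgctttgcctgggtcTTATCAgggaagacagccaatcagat
Rhag (chr17:40810899-40811125, + strand, GATA match at 31 bases): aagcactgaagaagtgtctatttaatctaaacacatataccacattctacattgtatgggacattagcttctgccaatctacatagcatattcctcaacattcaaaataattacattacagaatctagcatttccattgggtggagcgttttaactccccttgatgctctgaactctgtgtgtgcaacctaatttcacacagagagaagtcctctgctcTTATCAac
Icam4 (chr9:21029182-21029372, + strand, CACCC-type match at 112 bases): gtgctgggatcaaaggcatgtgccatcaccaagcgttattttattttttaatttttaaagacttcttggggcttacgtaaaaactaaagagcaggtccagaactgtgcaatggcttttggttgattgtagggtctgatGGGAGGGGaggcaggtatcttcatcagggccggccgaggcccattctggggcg
Hemgn (chr4:46404237-46404433, - strand, overlapping CACCC-type matches in a run of G from 98 bases): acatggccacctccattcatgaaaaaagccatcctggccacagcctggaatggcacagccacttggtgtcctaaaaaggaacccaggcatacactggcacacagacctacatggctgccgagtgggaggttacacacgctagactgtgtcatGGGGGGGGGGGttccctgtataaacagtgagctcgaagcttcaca
Tal1 (chr4:115056176-115056425, + strand, GATA match at 205 bases): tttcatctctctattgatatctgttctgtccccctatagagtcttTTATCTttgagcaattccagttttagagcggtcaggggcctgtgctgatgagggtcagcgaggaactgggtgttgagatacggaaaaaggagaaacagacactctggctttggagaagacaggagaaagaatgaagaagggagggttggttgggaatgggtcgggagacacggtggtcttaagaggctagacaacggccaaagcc
Pdzk1ip1 (chr4:115088458-115088707, + strand, CACCC-type match at 11 bases): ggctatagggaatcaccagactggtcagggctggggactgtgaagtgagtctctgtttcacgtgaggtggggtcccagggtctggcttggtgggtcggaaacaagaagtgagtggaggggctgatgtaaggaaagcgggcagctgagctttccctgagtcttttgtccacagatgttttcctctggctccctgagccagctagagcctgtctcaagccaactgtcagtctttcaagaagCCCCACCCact
Tent5c (chr3:100489325-100489442, - strand, no match in these bases): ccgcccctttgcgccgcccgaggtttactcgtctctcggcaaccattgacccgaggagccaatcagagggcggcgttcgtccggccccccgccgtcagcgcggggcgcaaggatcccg
Bpgm (chr6:34476106-34476206, + strand, no match in these bases): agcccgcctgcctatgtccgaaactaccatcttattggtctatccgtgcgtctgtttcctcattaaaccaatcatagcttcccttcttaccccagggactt
Tmcc2 (chr1:132367949-132368198, - strand, GATA matches at 52 and 33 bases, CACCC-type match at 110 bases): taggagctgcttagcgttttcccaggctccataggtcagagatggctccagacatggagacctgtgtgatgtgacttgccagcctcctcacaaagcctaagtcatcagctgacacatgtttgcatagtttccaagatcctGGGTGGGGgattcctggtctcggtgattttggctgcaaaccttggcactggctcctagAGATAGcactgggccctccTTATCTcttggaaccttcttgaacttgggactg
Of the members, 25 matched the RefSeq promoter table by symbol, with 33 promoters; Dmtn, Car1, Nfe2, Slc4a1, Car2, Ank1, Lmo2 and Gypc did not. Over the full 250 bases, a GATA motif lay in 18 of these 33 promoters (54.5%), against 26.5% of the 32851 promoters in the table. A CACCC-type motif lay in 21 of 33 (63.6%), against 45.9%, and both lay in 8 of 33 (24.2%), against 8.19%. Members with both in one window included Epor, Gfi1b, Epb41, Add2 and Tmcc2. These are matches of letters and were not tested as sites, and several promoters share a gene.

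Levels are given in TPM, a measure of transcript abundance per length, as mean ± SD (n = 2) or as both libraries' values. Of the 33 genes, 31 (93.9%) were at or above 1 TPM in both libraries, against 57.3% of the 21474 protein-coding genes. Their median was 10.9 TPM, against 3.07 TPM for protein-coding genes. With only transcripts of at least 1000 nt counted, these medians were 6.36 and 1.77 TPM. A mean of at least 10 TPM was reached by 18 of them, and one of at least 50 TPM by Car2, Bpgm, Blvrb, Ldb1 and Epb41. Car1 and Trim58 were the members below 1 TPM. Together the 33 genes held 682 and 675 TPM, which is 0.0682% and 0.0675% of the total, while the globin genes held 13.6% and 9.03%.

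**Figure D1:**
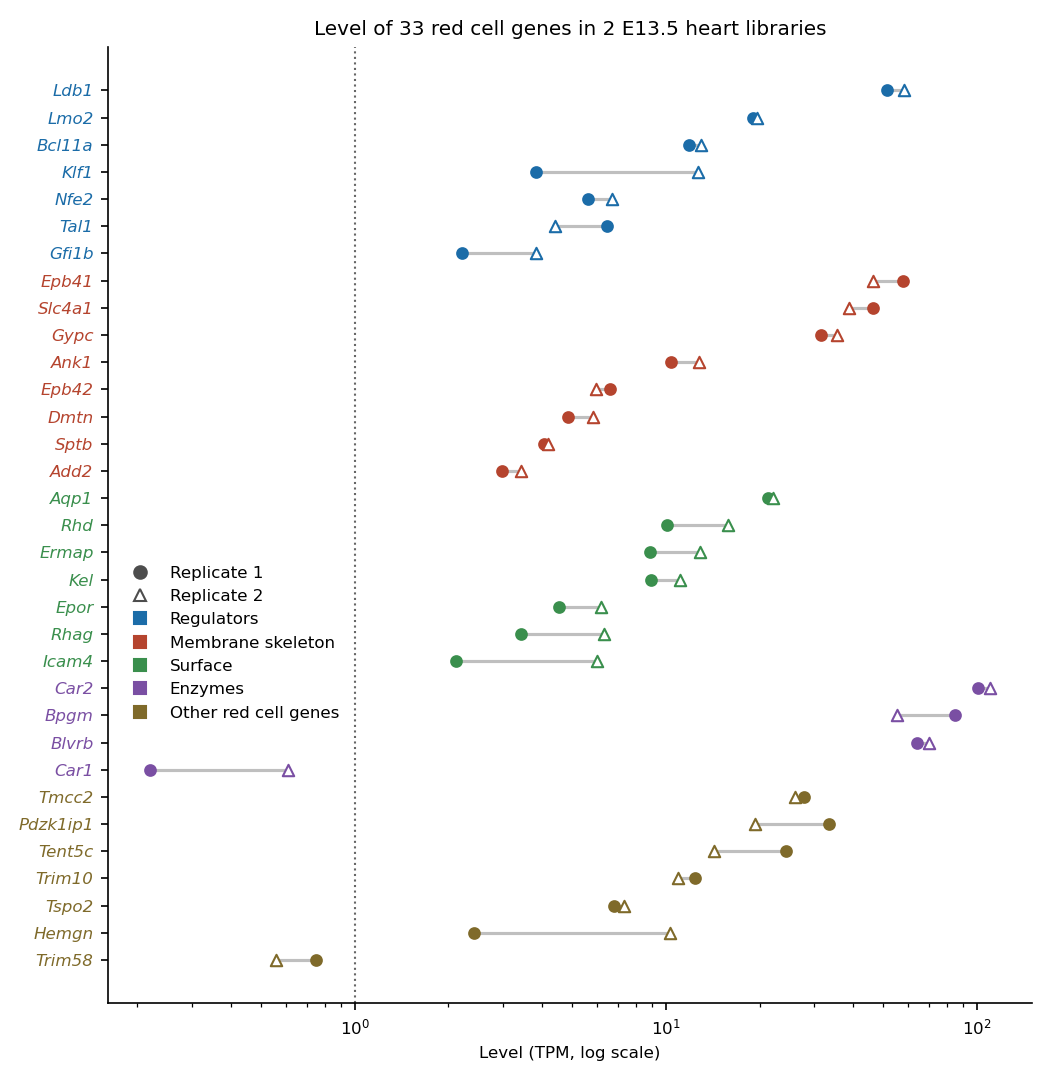
Level of each of the 33 genes in replicate 1 (filled circle) and replicate 2 (open triangle) in TPM on a log axis, coloured by class, with a dotted line at 1 TPM. Car1 and Trim58 lie left of the line in both libraries, and the widest gaps above it are those of Hemgn, Klf1 and Icam4.

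Ldb1, the adaptor that holds the regulator complex together and is used in many tissues, was the highest of the 7 regulators, with 51.5 TPM in replicate 1 against 58.2 in replicate 2. Lmo2, the bridging partner of Ldb1 and Tal1 in blood and endothelial cells, stood at 19.0 and 19.6 TPM. Bcl11a, a repressor of embryonic and fetal globin genes that also acts in lymphocytes and neurons, stood at 11.9 and 13.0 TPM. Each of these genes differed little between the libraries. Klf1, the CACCC-binding activator of globin and membrane genes, had 3.83 TPM in replicate 1 against 12.7 in replicate 2. It was thus below Bcl11a in replicate 1 and close to it in replicate 2. Nfe2, the subunit of the NF-E2 activator found in red cells and megakaryocytes, stood at 5.60 and 6.71 TPM. Tal1, which starts blood formation, stood at 6.47 and 4.40 TPM, so it was the higher of Tal1 and Klf1 in replicate 1 and the lower in replicate 2. Gfi1b, a repressor needed by red cells and platelets, was the lowest regulator, at 2.21 and 3.82 TPM.

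Among the 8 membrane skeleton genes, Epb41 (protein 4.1) led, with 57.8 TPM in replicate 1 against 46.3 in replicate 2. Slc4a1, the band 3 anion exchanger that anchors the skeleton, followed at 46.2 and 38.7 TPM. Both were lower in replicate 2. Gypc, the glycophorin that protein 4.1 binds, stood at 31.5 and 35.4 TPM. Ank1, whose long form is the ankyrin that ties spectrin to band 3, stood at 10.4 and 12.8 TPM. Most of that was assigned to short transcripts, as described below, and the long Ank1-207 had 1.11 and 1.40 TPM. The other 4 genes lay within 3.21 to 6.29 TPM on average. Epb42, the protein 4.2 that stabilises the link of ankyrin to band 3, stood at 6.62 and 5.96 TPM. Dmtn, the actin bundling protein dematin, stood at 4.83 and 5.81 TPM. Sptb, the beta chain of red cell spectrin, stood at 4.06 and 4.18 TPM, and Add2, the beta adducin that caps actin filaments, at 2.98 and 3.43 TPM. The genes of this mesh thus spanned a wide range of levels.

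The 7 surface genes had a median of 10.0 TPM. Aqp1, the water channel of red cells and capillary endothelium, was the highest and stood at 21.3 and 22.1 TPM. Rhd, the Rh blood group protein, stood at 10.1 and 15.8 TPM, and Rhag, the ammonia channel protein that it needs at the membrane, at 3.41 and 6.31 TPM. Both Rh genes were higher in replicate 2, and Rhd exceeded Rhag in each library. Ermap, which carries the Scianna blood group, stood at 8.86 and 12.9 TPM, and Kel, the Kell blood group protease, at 8.97 and 11.1 TPM. For these 2 genes TPM and counts diverge, as described with the transcripts. Epor, the erythropoietin receptor, stood at 4.54 and 6.18 TPM. Icam4, the adhesion protein by which erythroblasts hold to macrophages, was the lowest, at 2.11 and 6.0 TPM.

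Of the 4 enzymes, 3 had the highest mean levels of all members. Car2, the carbonic anhydrase that turns carbon dioxide to bicarbonate in red cells and other tissues, stood at 101 and 110 TPM. Bpgm, which makes the bisphosphoglycerate that lowers the oxygen affinity of haemoglobin, had 84.9 TPM in replicate 1 against 55.4 in replicate 2. Blvrb, the biliverdin reductase and flavin reductase of red cells, stood at 63.9 and 70.1 TPM. Bpgm was the one that differed. Car1, the other red cell carbonic anhydrase, was close to the limit of detection, with 7 and 18 reads (0.22 and 0.61 TPM).

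Of the 7 further members, Tmcc2, a transmembrane coiled-coil protein, stood at 27.8 and 25.9 TPM. Pdzk1ip1, a small membrane protein whose gene lies beside Tal1, stood at 33.4 and 19.3 TPM. Tent5c, a poly(A) polymerase that lengthens messenger tails, stood at 24.3 and 14.3 TPM. These 3 genes were lower in replicate 2, the last 2 of them by more than 1.5-fold. Trim10, a tripartite motif protein of erythroid cells, stood at 12.4 and 10.9 TPM, and Tspo2, the erythroid relative of the cholesterol-binding translocator protein, at 6.79 and 7.34 TPM. Hemgn, the nuclear protein hemogen of blood progenitors and erythroblasts, had 2.41 TPM in replicate 1 against 10.3 in replicate 2. Trim58, which helps erythroblasts shed the nucleus, had 46 and 32 reads (0.75 and 0.56 TPM).

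The difference between the libraries was measured as the log2 ratio of scaled counts, replicate 2 over replicate 1, for genes with a mean count of at least 50. Each side is 1 library, so no test is possible, and the 95% exact binomial intervals cover counting error only. All ratios, higher and lower, are relative to the bulk of genes: on the scale of spike-in totals the median of all genes moves to 1.29, and the members called lower below then lie above 0 but under that median. Over the 31 members with enough reads the median was 0.01, against -0.003 over all 13763 such genes, with 16 members above 0 and 15 below. Members at least 1.5-fold higher in replicate 2 numbered 4 of 31 (12.9%), against 250 of all genes (1.82%). Members at least 1.5-fold lower also numbered 4 of 31 (12.9%), against 219 of all genes (1.59%). At 2-fold, 3 members were higher (9.68%, against 0.741% of all genes) and none was lower (0.269% of all genes). The other 23 members lay within 1.5-fold, with Rhd (0.50), Gfi1b (0.49) and Epb41 (-0.48) closest to that bound. The 33 genes thus did not shift together: the median stayed at that of all genes, and single members moved both ways.

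**Figure D2:**
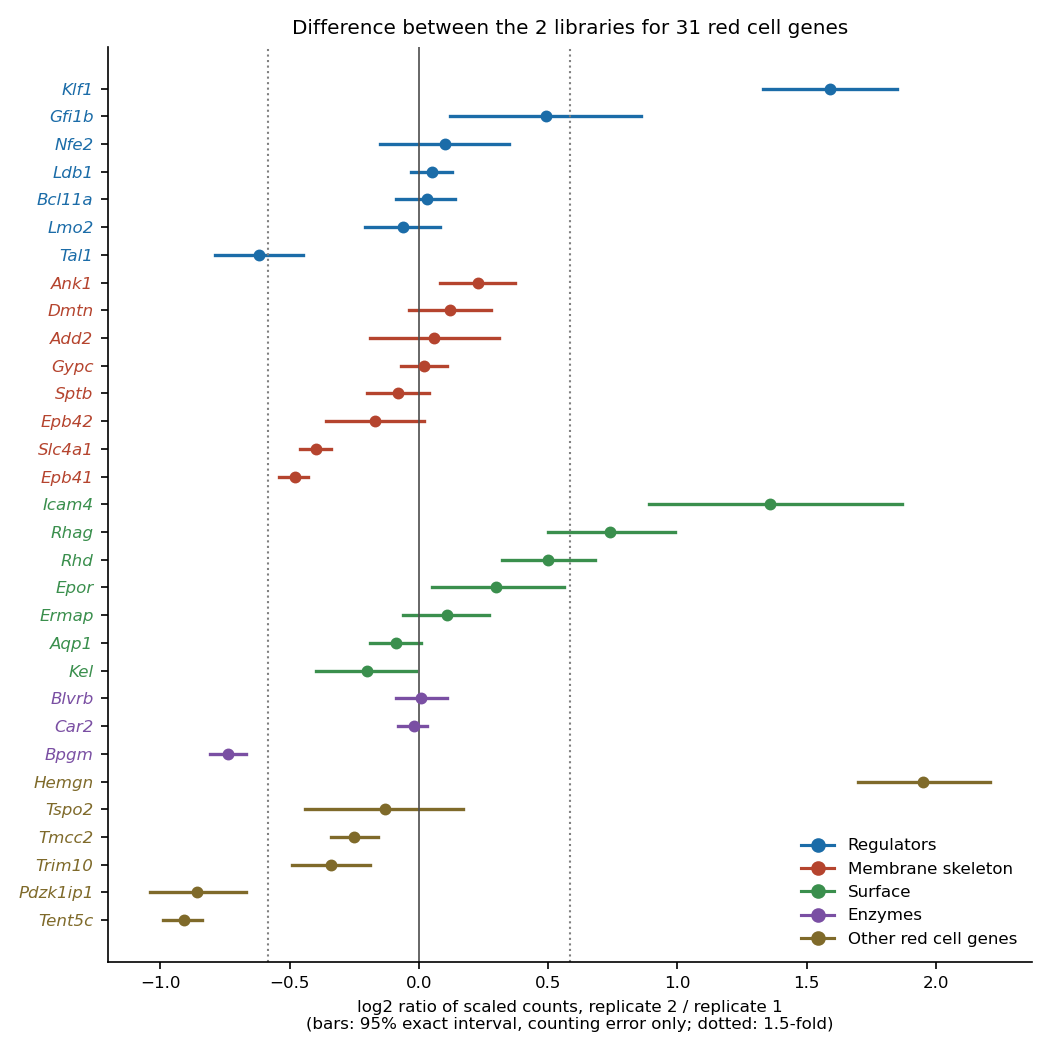
Log2 ratio of scaled counts, replicate 2 over replicate 1, for the 31 members with a mean count of at least 50, by class. Bars are 95% exact intervals for counting error only and dotted lines mark 1.5-fold; Hemgn, Klf1, Icam4 and Rhag lie to the right of the lines and Tent5c, Pdzk1ip1, Bpgm and Tal1 to the left.

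Hemgn (chromosome 4, 46393989 to 46413506) had 160 reads in replicate 1 and 639 in replicate 2, a log2 ratio of 1.95 (1.70 to 2.21), which is 3.86-fold. Klf1 (chromosome 8, 84901928 to 84905291) had 161 and 500 reads, a log2 ratio of 1.59 (1.33 to 1.85), which is 3.0-fold. Icam4 (chromosome 9, 21029373 to 21030595) had estimated counts of 49.84 and 132.89, a log2 ratio of 1.36 (0.89 to 1.87). Its counts are not whole and the gene Gm47079 overlaps it on the other strand, so reads may have been divided between the pair. Rhag (chromosome 17, 40811126 to 40840754) had 224 and 387 reads, a log2 ratio of 0.74 (0.50 to 0.99). The interval of Rhag reaches below the 1.5-fold bound at 0.58, while those of Hemgn, Klf1 and Icam4 lie above it.

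Of the members lower in replicate 2, Tent5c (chromosome 3, 100451628 to 100489324) had 3771 and 2064 reads, a log2 ratio of -0.91 (-0.99 to -0.84). Pdzk1ip1 (chromosome 4, 115088708 to 115093899) had 670 and 382 reads, a log2 ratio of -0.86 (-1.04 to -0.67). Bpgm (chromosome 6, 34476207 to 34505613) had 4676 and 2893 reads, a log2 ratio of -0.74 (-0.81 to -0.67). These intervals lie wholly past the 1.5-fold bound. Tal1 (chromosome 4, 115056426 to 115071755) had 696 and 468 reads, a log2 ratio of -0.62 (-0.79 to -0.45), with an interval that crosses the bound. Its ratio of TPM (-0.56) was short of the bound, but that scale is not centred on the bulk of genes: their median on it was 0.15. Tal1 and Pdzk1ip1 are neighbours on the same strand with no gene between them and 17.0 kb apart, and both were lower in replicate 2. Car1 and Car2 are the other close pair, 77.9 kb apart with Car3 between, and Car2 had a log2 ratio of -0.02 while Car1 had too few reads for one.

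**Figure D3:**
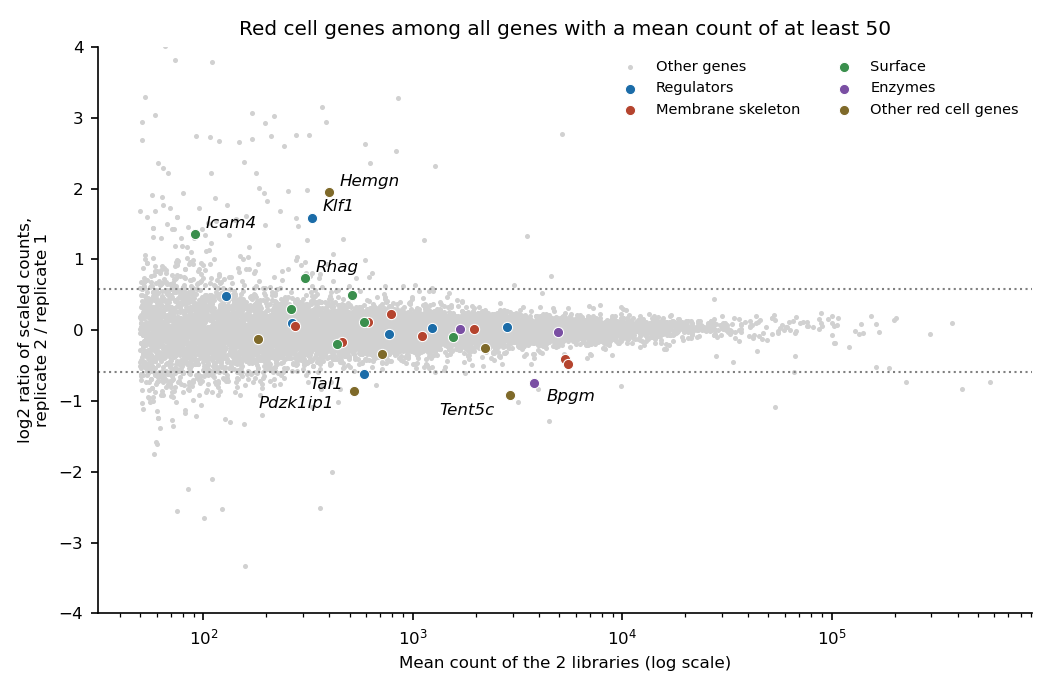
Log2 ratio of scaled counts against the mean count (log axis) for the 13763 genes with a mean count of at least 50 (grey), with the 31 members coloured by class and dotted lines at 1.5-fold; 7 other genes lie beyond the plotted range of 4. The labelled members are the 8 past 1.5-fold, and those with the most reads, Bpgm and Tent5c, lie below a cloud that is narrow at their counts.

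By class, the membrane skeleton varied least: its 8 genes had a median log2 ratio of -0.03, ranged from Epb41 (-0.48) and Slc4a1 (-0.40) to Ank1 (0.23), and none was 1.5-fold apart. Epb42 (-0.17), Sptb (-0.08), Gypc (0.02), Add2 (0.06) and Dmtn (0.12) lay between. The 7 surface genes had a median of 0.30, with 5 above 0: Icam4, Rhag, Rhd (0.50), Epor (0.30) and Ermap (0.11). Aqp1 (-0.09) and Kel (-0.20) lay below 0. The 7 regulators had a median of 0.05 and ran from Tal1 to Klf1, with Ldb1 (0.05), Bcl11a (0.03), Lmo2 (-0.06) and Nfe2 (0.10) near 0. Tal1, Lmo2 and Ldb1, whose proteins form a complex, thus did not move together. Of the 3 enzymes with enough reads, Car2 and Blvrb (0.01) were level and Bpgm was lower. Of the 6 further members with enough reads, Hemgn was higher and the other 5 were below 0, with Tspo2 at -0.13, Tmcc2 at -0.25 and Trim10 at -0.34. The differences between these class medians were not tested.

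The globin genes, which carry the haemoglobin chains, were lower in replicate 2: all 7 with enough reads lay below 0 (median -0.73), and 5 were at least 1.5-fold lower. These were the embryonic Hbb-y (-0.84), Hba-x (-1.09) and Hbb-bh1 (-1.29) and the adult Hba-a1 and Hba-a2 (both -0.73). The adult Hbb-bs (-0.52) and Hbb-bt (-0.53) were lower by less than 1.5-fold. Of a further list of 35 red cell genes, 34 had enough reads and a median of -0.10. In this list Tfr2, a transferrin receptor of the erythroid and liver lineages, was higher (1.77, with 28 and 100 reads), as were Gata1, the central erythroid activator (1.17, with 99 and 231 reads), and the urea transporter Slc14a1 (0.71). Alas2, the first enzyme of erythroid haem synthesis, was lower (-0.79, at 238 and 147 TPM). Gata1 thus had the direction of Klf1 and Hemgn, and Alas2 that of Bpgm and the globins. The other 30 genes of this list with enough reads lay within 1.5-fold. The list's 5 highest genes were Prdx2 (588 TPM), Bnip3l (414 TPM), Alas2, Slc2a1 (173 TPM) and Tmod1 (141 TPM), of which all but Alas2 are also used outside red cells. The other 4 had ratios from -0.19 to 0.21.

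Markers of other cells were read in the same way. All 12 hepatocyte genes with enough reads were past 1.5-fold in favour of replicate 2. Their median was 2.57, the summed level was 103 and 545 TPM, and none of the 13 was at 0. Of 11 progenitor and mast cell genes (summed 87.6 and 100 TPM), 9 had enough reads, with a median of -0.13. Cd34, also a gene of endothelium, made up most of that sum at 65.8 and 72.2 TPM. Mpo, the myeloperoxidase of granulocyte precursors, stood apart on that list at 1.97. Ms4a2, a mast cell receptor gene on that list, was at 0 in replicate 2 and had 2 reads in replicate 1. Of 10 megakaryocyte and platelet genes (summed 70.0 and 87.1 TPM), 9 had enough reads and 8 were above 0, with a median of 0.19 and the platelet chemokine Ppbp at 0.62. The 12 endothelial genes (summed 829 and 905 TPM) lay between -0.16 and 0.08. The macrophage list (summed 213 and 223 TPM) had a median of -0.31 and the cardiomyocyte list one of 0.11, with no gene 1.5-fold apart. The part of the hepatocyte, Mpo and globin differences in the ratios of Klf1, Hemgn, Icam4, Rhag and the lower members was not tested.

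**Figure D4:**
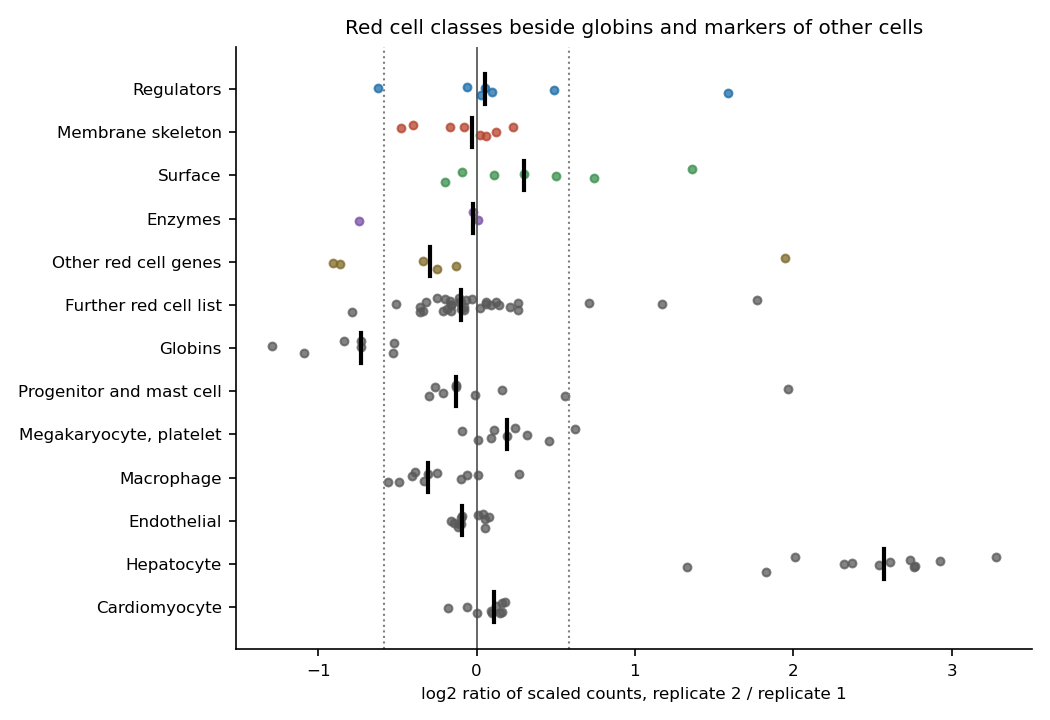
Log2 ratio of scaled counts, replicate 2 over replicate 1, of each gene with enough reads (dots, with vertical jitter) in the 5 classes of members (coloured) and in 8 comparison lists (grey); black bars are medians and dotted lines mark 1.5-fold. The globins lie left of 0 and the hepatocyte genes right of the 1.5-fold line, while the membrane skeleton and endothelial genes stay between the lines.

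Most members belong to families whose other genes serve other tissues, and TPM, being per length, allows levels of different genes to be compared within a library. A pair was called when the deposited credibility intervals of TPM, whose level is not stated, did not overlap in either library and the direction was the same. Of 47 pairs for 24 members, 44 were called: the member was the higher gene in 24 and the relative in 20. Sptbn1, the spectrin of non-erythroid cells, stood at 112 and 127 TPM, 28.9-fold above Sptb. Add1, the alpha adducin that pairs with Add2 in the red cell, and Add3, the gamma adducin of other tissues, were 34.3-fold and 24.7-fold above Add2. Tgm2, an active transglutaminase related to the inactive protein 4.2, was 28.8-fold above Epb42. By contrast Slc4a1 was 2.00-fold above Slc4a2 and 2.10-fold above Slc4a3, the anion exchanger known from heart and brain. Epb41 was 1.87-fold above Epb41l2 and 53.2-fold above Epb41l1 but below Epb41l3 (62.7 and 67.6 TPM). Ank1 was below Ank3 (23.3 and 24.9 TPM) and overlapped Ank2 (14 and 13.8 TPM), the ankyrin of heart muscle. These are levels of whole genes, and the long Ank1-207 stood at only 1.25 ± 0.21 TPM.

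Among the regulators, Gfi1b was far above Gfi1 (0.03 and 0.05 TPM) and Tal1 far above Tal2 (0.02 and 0.06 TPM), relatives so low that a fold is imprecise. Lmo2 was 25.1-fold above Lmo1 and 14.1-fold above Lmo3. Ldb1 was 5.63-fold above Ldb2 and Bcl11a 3.46-fold above Bcl11b. The relative was the higher gene for Nfe2l1 (8.94-fold) and Nfe2l2 against Nfe2, for Lyl1 against Tal1 (2.43-fold), for Lmo4 against Lmo2 and for Klf3 against Klf1 (6.22-fold in replicate 1 and 1.98-fold in replicate 2). Lyl1, a blood and endothelial relative of Tal1, stood at 13.3 and 12.7 TPM. The pairs of Klf1 with Klf2, a factor of endothelium (11.7 and 11.6 TPM), and with Klf4 (2.96 and 3.0 TPM) were not called: Klf1 was below Klf2 in replicate 1 and close to it in replicate 2. Both relatives were level between the libraries while Klf1 was not.

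For the surface proteins and enzymes, Rhag exceeded its epithelial relatives Rhbg (0.10 and 0.63 TPM) and Rhcg (0.02 and 0.21 TPM). For Rhbg the gap was 31.1-fold in replicate 1 and 9.87-fold in replicate 2. Aqp1 was 3.31-fold above Aqp4, 26.1-fold above Aqp3, and above Aqp8 8.09-fold in replicate 1 and 14-fold in replicate 2. The endothelin-converting protease Ece1 (60.1 and 64.5 TPM) was above Kel, and Icam1 and the endothelial Icam2 (60.6 and 71.0 TPM) were above Icam4. Car2 was 4.67-fold above Car14, 18.4-fold above Car3 and 47.3-fold above Car4, whereas all of these exceeded Car1, with the widest gap for Car14 (87-fold and 41-fold in the 2 libraries). Blvrb was 2.16-fold above Blvra. The glycolytic mutases Pgam1 (579 and 675 TPM) and Pgam2 (622 and 744 TPM), the latter of muscle, were above Bpgm, and Tspo was 16.0-fold above Tspo2. Tent5c was above Tent5a 3.36-fold in replicate 1 and 1.82-fold in replicate 2, and above Tent5b (0.28 and 0.57 TPM) 83.9-fold and 24.6-fold.

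**Figure D5:**
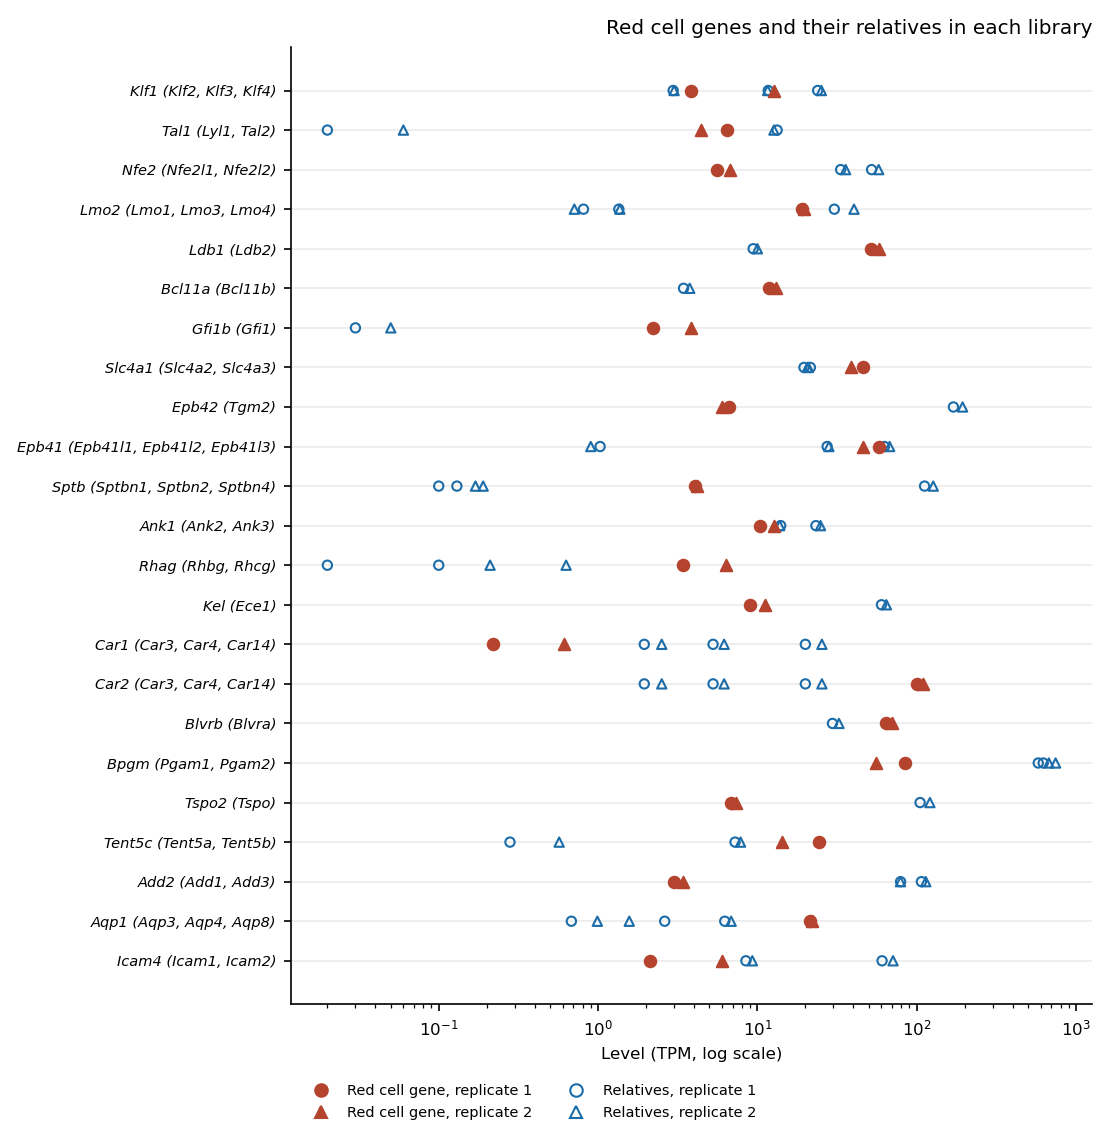
Level in TPM (log axis) of 23 members (red) and of their listed relatives (blue, open, named in brackets) in replicate 1 (circles) and replicate 2 (triangles). Relatives of Sptb, Add2, Epb42 and Tspo2 lie far to the right of the member, while Car2 and Gfi1b lie far to the right of theirs.

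The deposited transcript shares divide each gene's TPM among its annotated forms. TPM is per length, so a short form can lead with fewer reads than a long one. Of the members, 8 have 1 annotated transcript, and of the other 25, 16 had a transcript holding over 50% of the gene's TPM in both libraries, 8 of them over 80%. Slc4a1-201, the 929-codon form of band 3, was assigned all of the gene's TPM in both libraries, as was Rhd-201 (418 codons). Hemgn-202, whose start lies 9.27 kb inside the gene at the promoter shown above, was also assigned all of the gene's TPM. The deposited posterior means gave it 86.34% and 92.43%, the rest going to Hemgn-201, which has the same 503 codons. Tmcc2-206, which starts 23.4 kb inside its gene near the promoter printed for it, held 75.2% ± 0.56 (SD, n = 2), against 7.71% ± 1.6 for the full-length Tmcc2-201. No such leader existed for Bcl11a, Car1, Epb41, Epb42, Ermap, Gfi1b, Kel, Ldb1 and Pdzk1ip1.

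In Ank1 the short forms led. Ank1-208, with 155 codons in 5 exons and a start 164 kb into a gene of 176 kb, held 66.0% ± 2.4 of the gene's TPM, at 7.63 ± 0.85 TPM. The similar Ank1-201 (156 codons) held 16.8% ± 2.0. The one long form above 1 TPM, Ank1-207 (1878 codons in 44 exons), held 10.8% ± 0.20, at 1.25 ± 0.21 TPM, but only 5.25% and 6.30% by the posterior means. As background, a short ankyrin 1 made from the end of this gene is a membrane protein of the sarcoplasmic reticulum of striated muscle, while the long form is that of the red cell. The TPM of Ank1 given above is thus mostly that of short transcripts, and its counts are not whole, while 5 annotated genes overlap it. By estimated reads, the short Ank1-208 had 337.78 and 369.88 and Ank1-201 had 51.6 and 50.39. The long Ank1-207 had 263.43 and 311.79 and Ank1-205 had 46.44 and 92.94, so the count ratio of Ank1 covers both kinds.

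For other genes the make-up moved between the libraries. In Tal1, the shorter transcript Tal1-204 held 33.65% in replicate 1 and 12.42% in replicate 2, at 2.18 and 0.55 TPM, while Tal1-201 stood at 4.30 and 3.77 TPM. In Pdzk1ip1, the noncoding Pdzk1ip1-204 stood at 11.2 and 3.14 TPM. The coding Pdzk1ip1-202 stood at 10.2 and 8.42 TPM and the coding Pdzk1ip1-208 at 7.92 and 4.39 TPM. Most of the gap in TPM of both neighbours was therefore assigned to 1 form each, though both coding forms of Pdzk1ip1 named here were also lower in replicate 2. In Kel, the full-length Kel-201 (713 codons) stood at 5.98 and 5.15 TPM, while 3 shorter forms were higher in replicate 2. These were noncoding Kel-202 (2.18 and 3.39 TPM), coding Kel-204 (0.41 and 1.44 TPM) and noncoding Kel-203 (0.41 and 1.07 TPM). The gene's TPM was thus higher in replicate 2 although its reads were fewer (459 and 412). In Ermap, the short Ermap-204 stood at 1.10 and 3.95 TPM and the long Ermap-206 at 2.98 and 3.69 TPM. By TPM, Bcl11a was led by the short Bcl11a-204 (191 codons, 43.3% ± 3.3), ahead of Bcl11a-202 (835 codons, 28.4% ± 1.0). By estimated reads the order was reversed, with 598.97 and 582.83 for Bcl11a-202 against 224.07 and 205.49 for Bcl11a-204. Epb41 was spread over many forms, of which noncoding Epb41-215 held 28.6% ± 0.021 and the coding Epb41-212 and Epb41-213 held 20.6% ± 0.37 and 16.8% ± 1.3. These shares are the estimates of the quantification and carry no count of junction reads.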

How the data were processed

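Total RNA-seq of E13.5 heart was read from 2 libraries, 1 per replicate. The input was 10 ng of RNA in the size range above 200 nt, with spike-in RNA added, per the labels. The authors deposited, per gene and transcript, expected counts (estimated reads, not normalized), TPM over all listed features, spike-ins included, and, as a percent, each transcript's share of its gene, per the file headers. Credibility bounds of TPM were deposited without their level. The build was mm10 with annotation M4, per the deposited file descriptions; for the aligner, the quantifier and strand use, the sources used here give no name. Of the members, 9 overlap a gene on the opposite strand and 4 (Bcl11a, Epb41, Ank1, Icam4) have counts that are not whole.

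With versions removed, 42462 of 43346 gene identifiers matched GENCODE M21 on the same assembly. Spike-ins (96 features, 5.96% and 2.56% of reads) and 26248 numbered features (42 and 49 reads) were left out. Expected counts were rounded and scaled with edgeR 4.0.16 (TMM, R 4.3.3); log2 ratios used a pseudocount of 0.5 and a mean count of at least 50. DESeq2 1.42.0 size factors were an alternative, as were other scalings, minimums and pseudocounts. TPM pair ratios used a pseudocount of 0.01. Tables were made in Python 3.11.15 with pandas 2.3.3 and numpy 2.4.6, intervals with scipy 1.17.1, and plots with matplotlib 3.10.9. The common coefficient of variation of the libraries was 0.0888 over 16410 genes. All members are named; relatives within 4-fold of or above the member are named, as are the 5 highest and the 1.5-fold genes of the further red cell list, except that 1 relative is not reported here by name. The members and lists were chosen with earlier results of these data known. Without molecular identifiers, reads are not independent, so intervals cover counting error only.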

Additional observations from a re-analysis of the deposited data

How the results depend on the processing

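With spike-in totals as the scale, all genes had a median log2 ratio of 1.29 and the members one of 1.30. Then 28 members were past 1.5-fold upwards and 0 downwards, against 99.0% and 0.0799% of all genes. The class medians were then 1.34 for regulators, 1.26 for the membrane skeleton, 1.59 for surface genes, 1.27 for enzymes and 1.00 for further members. All 15 members below 0 on the main scale then lay above 0. Among them were the 4 called lower: Pdzk1ip1 (0.43), Tal1 (0.67), Bpgm (0.55) and Tent5c (0.37). The spike-in shares differ between the libraries, and the cause was not tested. Relative to all genes, the members' median was 0.01 higher on this scale and -0.01 on that of TPM. With the ratio of TPM, whose median over all genes was 0.15, surface genes had a median of 0.54. Against a bound centred on 0 and not on that median, Tal1 (-0.56) fell below 1.5-fold and Gfi1b (0.79) and Rhd (0.64) passed it. Then 6 members were past it upwards and 3 downwards, against 3.49% and 1.04% of all genes. Under the other 10 settings all 31 members stayed on the same side of the 1.5-fold bound, where they still had enough reads. With no count minimum or one of 10 reads, Car1 (1.26, from 7 and 18 reads) entered, so 5 members were past it upwards. The shares of all genes past that bound depended on the count minimum: 15.4% higher and 14% lower with none, 5.37% and 4.84% at 10 reads, and 0.526% and 0.339% at 200. Counting only transcripts of at least 1000 nt, an alternative chosen after seeing the data, lowered the members' median from 10.9 to 6.36 TPM, since short transcripts are then left out. Each replicate is 1 side of the ratio, so leaving one out gives no ratio. No paired analysis was possible because there is 1 group. With 2 libraries no interval covers the spread between hearts, and ratios of members with few reads, such as Icam4, are the least precise.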
